A study of Sus scrofa with 48 samples.

Results

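The 3 peroxisome proliferator-activated receptors (PPARA, PPARD, PPARG), the 3 retinoid X receptors (RXRA, RXRB, RXRG) and the coactivator PPARGC1A were examined in the perirenal fat of 48 growing pigs. Members were the array probes whose gene name in the scanner files was one of these 7 symbols, whatever the case of the letters. There were 19 such probes among the 60306 probes of the array, and 17 of them, from 6 genes, were among the 38142 probes that the authors kept after their filters on spot quality. The probe A_72_P444634 was the only kept probe of RXRA, and PPARGC1A had no kept probe under its own symbol.

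The pigs were Large White barrows of 132 days of age by the labels, from a pair of lines selected in opposite directions for residual feed intake (RFI), the feed eaten beyond that predicted from growth. The low RFI line (RFIneg) was the more efficient and the high RFI line (RFIpl) the less efficient. Within each line, 12 pigs ate a high-fat, high-fiber diet (HF) and 12 ate a low-fat diet rich in starch (LF), both freely available, which gave the 4 groups HF_RFIneg, HF_RFIpl, LF_RFIneg and LF_RFIpl. Each line is a single selected population, so a line difference also holds whatever else separates these populations. One array was hybridised per pig, and the level of a probe is given below as the log2 of its median spot signal minus the median log2 signal of all probes on that array, so that 0 is the middle of the array and 1 unit is a doubling.

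PPARs are nuclear receptors that bind fatty acids and their derivatives, pair with an RXR on DNA and turn on genes of lipid storage and lipid burning. In fat, PPARG drives the formation of adipocytes and the filling of their lipid droplet, PPARA and PPARD are better known for fatty acid oxidation, and the RXRs are the shared partners that also serve the retinoic acid, thyroid hormone, liver X and vitamin D receptors. PPARGC1A is a coactivator that docks on these receptors and promotes mitochondrial biogenesis.

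The member probes are 60 bases long, and their sequences decide which of them are separate measurements. The 10 printed here do not include PPARD O9480, PPARA A_72_P775972 or RXRA A_72_P444634. The 3 brightest PPARG probes lie over each other, and the 38 bases that they share are in capitals.
PPARG A_72_P441339: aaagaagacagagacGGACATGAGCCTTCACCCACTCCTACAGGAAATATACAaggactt
PPARG A_72_P146711: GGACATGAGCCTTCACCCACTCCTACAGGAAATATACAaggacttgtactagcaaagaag
PPARG A_72_P636927: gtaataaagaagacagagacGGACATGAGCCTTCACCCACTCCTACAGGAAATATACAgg
These 3 probes therefore read 1 stretch of the PPARG transcript, and they are not 3 independent findings. A pair of RXRB probes meets in the 18 bases in capitals, and is shown because the diet difference of the pair was unequal.
RXRB A_72_P537730: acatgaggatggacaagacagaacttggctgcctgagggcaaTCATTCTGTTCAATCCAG
RXRB A_72_P537734: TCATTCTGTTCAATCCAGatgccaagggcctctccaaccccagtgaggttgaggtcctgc
The next 4 probes read separate windows of PPARD and of RXRG, and the last is the PPARA probe that was spotted a second time on each array under another name. They hold no capitals.
PPARD A_72_P443751: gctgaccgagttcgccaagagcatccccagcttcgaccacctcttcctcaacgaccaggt
PPARD A_72_P165296: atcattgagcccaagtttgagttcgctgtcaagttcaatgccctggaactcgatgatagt
RXRG A_72_P553461: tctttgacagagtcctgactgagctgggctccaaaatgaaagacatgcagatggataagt
RXRG A_72_P570584: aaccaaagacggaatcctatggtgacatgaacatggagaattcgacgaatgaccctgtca
PPARA A_72_P441798: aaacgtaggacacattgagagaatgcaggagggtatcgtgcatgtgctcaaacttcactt
No probe of a member gene shared a run of 16 or more bases with a probe of another member gene, so these paralogs were read through different sequences.

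The array set at hand was even, apart from the probe count of a single array. The median probe signal ran from 115 to 178 among arrays, and the number of probes well above background from 38875 to 47814. The lowest count was that of HF_RFIpl replicate 2, and the next lowest array had 41703. The mean correlation of an array with the others ran from 0.978 to 0.988, so no array stood apart by correlation. Among cell type markers, 6 of 8 macrophage genes were higher in HF pigs, with C1QA up 1.74-fold and CD163 up 1.62-fold, and the mean level of the 8 ran from 1.93 to 4.18 in HF and from 1.68 to 3.91 in LF pigs. CD68 and CD14 were not called, and CD68 was dim, being well above background on 42 arrays. The adipocyte markers ADIPOQ, PLIN1, FABP4, LIPE and DGAT2 were not called and CIDEC and LEP fell, with the mean of the 7 between 8.57 and 9.06 in HF and between 8.65 and 9.29 in LF pigs. None of the measured markers of endothelium, fibroblasts, T cells, skeletal muscle or adrenal cortex was called, while CIDEA of brown fat and AQP2 of kidney fell, by 0.42 and 0.63 on the log2 scale. In whole tissue, fewer cells of a type and less RNA per cell cannot be told apart, and the part of these cell types in the receptor results was not tested.

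The first question was how the diet moved the receptors. RXRG moved in the opposite direction to PPARD and PPARG: 2 of 3 RXRG probes rose in HF pigs, by 1.36-fold and 1.33-fold, 2 of 3 PPARD probes fell, to 0.63 and 0.835 of the LF level, and 2 of 4 PPARG probes fell, to 0.871 and 0.879. RXRA fell to 0.886 of the LF level, and the probes of PPARA and of RXRB disagreed among themselves. Of the 17 kept member probes, 10 were called (limma, unadjusted p under 0.01, a fold over 1.1 and a Benjamini-Hochberg adjusted p under 0.08), 3 higher and 7 lower, which is 58.8% of them. Over all kept probes the same rule called 24.5%, with 8.97% higher and 15.5% lower in HF pigs. These shares count probes, not genes, and probes of a gene are not independent. The called PPARG probes overlap in sequence (r = 0.99 over 48 pigs), and the called RXRG probes had r = 0.96.

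**Figure D1:**
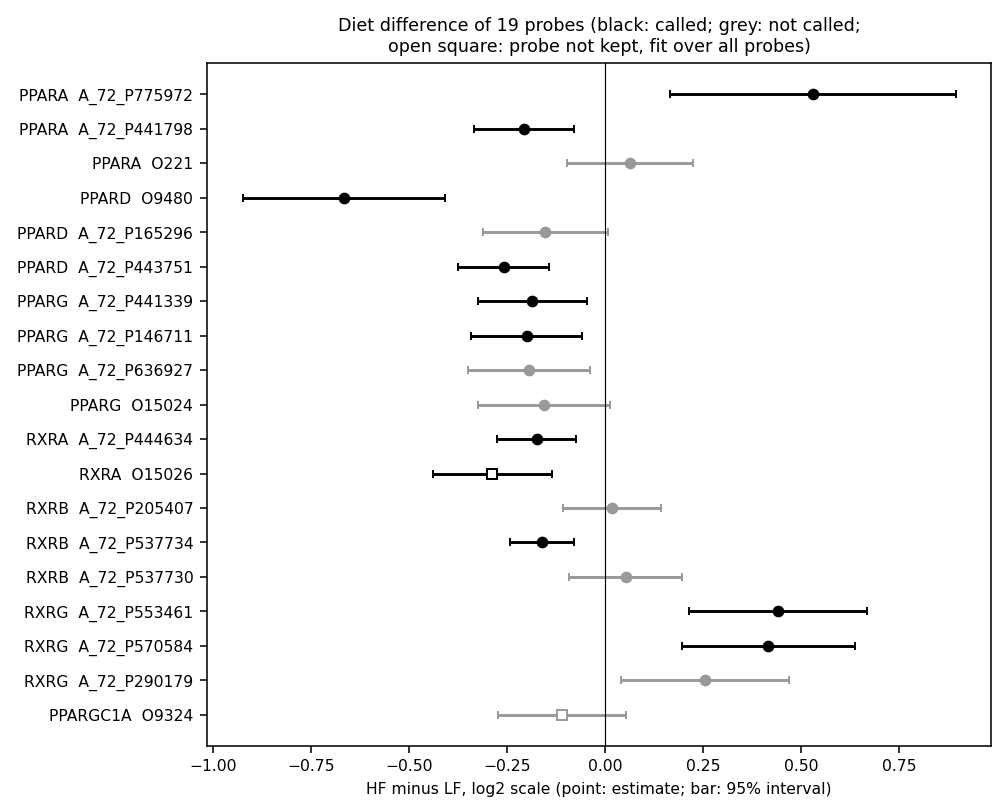
Diet difference (HF minus LF, log2 scale, with 95% interval) of each of the 19 member probes, 24 pigs per diet; black marks a called probe, grey a probe that was not called, and open squares the 2 probes outside the kept set, fitted with all 60306 probes. RXRG probes lie right of 0, PPARD, PPARG and RXRA probes left of 0, and PPARA and RXRB probes on both sides.

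How each array is scaled matters for the balance of rises and falls. Called probes over the whole array were 3423 higher and 5912 lower with the median used here, but 4543 and 4707 after centring on the 75th percentile, 4701 and 4361 after quantile normalization, and 9336 and 1703 when arrays were centred on the spiked-in control RNA, which moved the median of all probes up by 0.11 on the log2 scale. All 17 kept member probes had the same sign under the 7 scalings and background corrections, the one used here included, but the calls did not all last. The calls of RXRG A_72_P553461 and A_72_P570584, PPARD O9480 and A_72_P443751, and PPARA A_72_P775972 stood under all 7, whereas PPARG A_72_P441339 and A_72_P146711 were each called under 3 of 7, RXRA A_72_P444634 and PPARA A_72_P441798 under 6 of 7, and RXRB A_72_P537734 under 5 of 7. Member calls were 3 higher and 5 lower with the 75th percentile or quantile normalization, and 4 higher and 2 lower with the spiked-in controls.

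PPARG, the receptor that makes and maintains adipocytes, was read by 4 kept probes. With A_72_P441339, the lowest, median and highest of the 12 pigs were 7.66, 7.79 and 7.93 in HF_RFIneg and 7.13, 7.80 and 8.02 in HF_RFIpl. On the LF diet they were 7.42, 8.00 and 8.27 in LF_RFIneg and 7.46, 7.80 and 8.26 in LF_RFIpl. The diets overlapped widely, but 20 of 24 HF pigs lay below the LF median, 9 LF pigs lay above the highest HF pig, and 4 HF pigs, all of the high RFI line, lay below the lowest LF pig. The HF_RFIneg pigs were the most alike, with an SD of 0.09 (n = 12) against 0.30, 0.26 and 0.27 in HF_RFIpl, LF_RFIneg and LF_RFIpl. The mean was 7.73 ± 0.23 (SD, n = 24) in HF and 7.91 ± 0.26 in LF pigs, a difference of -0.19 ± 0.07 (SE; adjusted p = 0.0358 by limma). This call was lost with slide or scan day as a block and in the two-way analysis of variance of the study's methods. The overlapping probes gave -0.20 (A_72_P146711, adjusted p = 0.0267) and -0.19 (A_72_P636927, adjusted p = 0.0518, not called since its unadjusted p exceeded the threshold), and the separate probe O15024 gave -0.16 (adjusted p = 0.152, not called). None of the 6 probe pairs of PPARG differed in its diet difference, whose intervals all lay within -0.13 to 0.08, and the probes followed each other closely from pig to pig, with r from 0.85 to 0.99 over 48 pigs. The difference was negative within each of the 6 slides for all 4 probes. The paper's qPCR on RNA of these pigs went the other way for PPARG, reported there as higher on the HF diet. For PPARD and RXRA that qPCR gave falls in this fat, and for RXRG a rise, as the arrays did. The source of the PPARG disagreement was not tested.

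PPARD, a widely expressed receptor linked to fatty acid oxidation, gave the largest fall among the member probes. With O9480, the lowest, median and highest pigs were 3.92, 4.55 and 5.16 in HF_RFIneg and 3.55, 4.68 and 5.96 in HF_RFIpl. In LF_RFIneg they were 4.58, 5.12 and 6.03, and in LF_RFIpl 4.69, 5.21 and 6.08. Although the ranges overlapped, 21 of 24 HF pigs lay below the LF median and 11 HF pigs lay below the lowest LF pig. The mean was 4.56 ± 0.52 in HF and 5.23 ± 0.38 in LF pigs (SD, n = 24 each), a difference of -0.67 ± 0.13 (SE; limma, adjusted p = 0.000119). It was negative on all 6 slides, from -1.13 to -0.14, and was called within the low RFI line (-0.69, adjusted p = 0.0122) and within the high RFI line (-0.64, adjusted p = 0.0144).

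The other PPARD probes fell less or were not called. A_72_P443751 averaged 0.33 ± 0.19 in HF and 0.59 ± 0.21 in LF pigs, a difference of -0.26 ± 0.06 (SE; limma, adjusted p = 0.000628) that was also called within both lines. It was negative on 5 of 6 slides, with 0.05 on the sixth slide. A_72_P165296 gave -0.15 (95% interval -0.31 to 0.01, adjusted p = 0.138), and a second spot of the same 60 bases, filed under another name, gave -0.20 (-0.36 to -0.04, adjusted p = 0.0503), with r = 0.94 between both spots over 48 pigs. The fall of O9480 exceeded that of A_72_P443751 by 0.41 (95% interval 0.20 to 0.62, adjusted permutation p = 0.0054) and that of A_72_P165296 by 0.51 (0.22 to 0.81, adjusted permutation p = 0.00576). From pig to pig, O9480 followed A_72_P443751 (r = 0.63) more than A_72_P165296 (r = 0.14), a description over 48 pigs with group means removed. The PPARD fall thus had its direction in all 3 probes, and its size depended on the probe.

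PPARA, the receptor best known for switching on fatty acid oxidation, rose by 1 probe and fell by another. A_72_P775972 ranged most from pig to pig, with lowest, median and highest values of -0.23, 1.02 and 2.13 in HF_RFIneg and -0.01, 1.11 and 2.10 in HF_RFIpl. In LF_RFIneg they were -0.54, 0.10 and 1.52, and in LF_RFIpl 0.12, 0.41 and 1.97. Most HF pigs were high, since 20 of 24 lay above the LF median, while 2 of 24 lay above the highest LF pig. The mean was 0.96 ± 0.70 in HF and 0.43 ± 0.61 in LF pigs, a rise of 0.53 ± 0.18 (SE; limma, adjusted p = 0.0228), positive on all 6 slides. A_72_P441798 went the other way, from -0.17 ± 0.19 in LF to -0.37 ± 0.25 in HF pigs, a fall of 0.21 on the log2 scale (adjusted p = 0.0113 by limma), with 19 of 24 HF pigs below the LF median. The second spot of these 60 bases gave -0.16 (95% interval -0.29 to -0.03, adjusted p = 0.0517), which was not called, with r = 0.82 between the spots. The third probe, O221, was dim, being well above background on 45 of 48 arrays, and gave 0.06 (-0.10 to 0.22, adjusted p = 0.569).

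The diet differences of the PPARA probes were unequal beyond their error. The diet difference of A_72_P775972 exceeded that of A_72_P441798 by 0.74 (95% interval 0.32 to 1.15, adjusted permutation p = 0.00576), and the probes did not follow each other from pig to pig (r = -0.08). A_72_P775972 followed O221 (r = 0.66), although their diet differences were also unequal, by 0.47 (0.16 to 0.77, adjusted permutation p = 0.0109). With the background-subtracted processed signal, an alternative chosen after seeing the data, that last inequality missed the threshold (0.40, adjusted permutation p = 0.0575), as did that of RXRG A_72_P570584 and A_72_P290179 (0.17, adjusted permutation p = 0.0538), and the other 7 pairs that had passed did so again. These probes give PPARA no single direction.

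**Figure D2:**
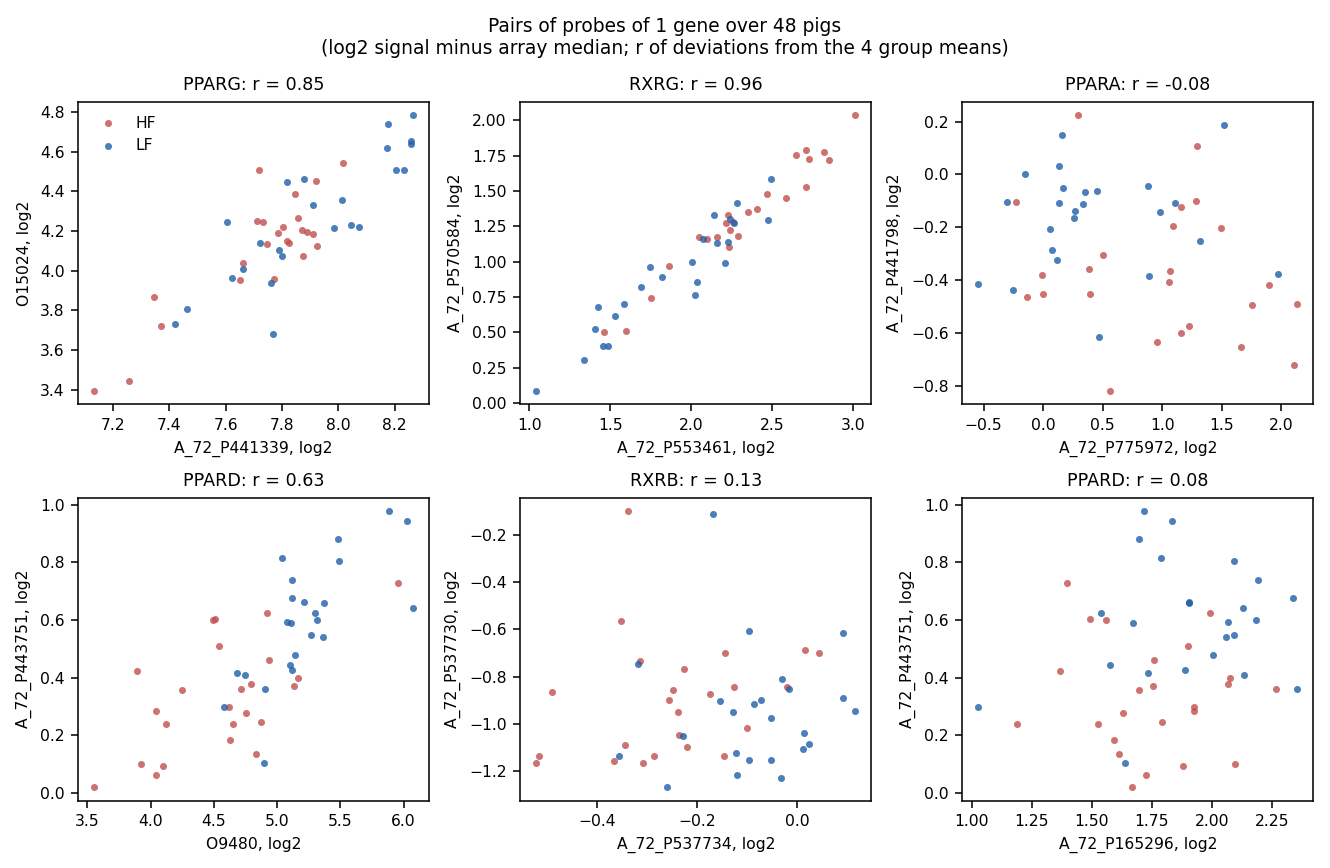
Levels of 6 pairs of probes of the same gene in 48 pigs (log2 signal minus array median; red HF, blue LF; r after removing the 4 group means). The PPARG and RXRG pairs lie along a line, with r of 0.85 and 0.96, while PPARA A_72_P775972 and A_72_P441798 (r = -0.08) and the overlapping RXRB probes (r = 0.13) do not.

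RXRG, the RXR best known from muscle and brain, was the only RXR with called rises. With A_72_P553461, the lowest, median and highest pigs were 1.46, 2.23 and 2.85 in HF_RFIneg and 1.60, 2.43 and 3.01 in HF_RFIpl. In LF_RFIneg they were 1.04, 1.88 and 2.49, and in LF_RFIpl 1.34, 2.09 and 2.47. The diets overlapped, but 8 of 24 HF pigs lay above every LF pig and 5 LF pigs lay below every HF pig. The mean was 2.32 ± 0.40 in HF and 1.88 ± 0.40 in LF pigs, a difference of 0.44 ± 0.11 (SE; limma, adjusted p = 0.00266). A_72_P570584 gave 0.42 ± 0.11 (adjusted p = 0.00327) and followed A_72_P553461 almost pig for pig (r = 0.96). Both were positive on all 6 slides.

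The third RXRG probe, A_72_P290179, gave a smaller difference. It averaged 0.96 ± 0.39 in HF and 0.71 ± 0.35 in LF pigs, a difference of 0.25 (95% interval 0.04 to 0.47, adjusted p = 0.0626) that was not called, and it was positive on 4 of 6 slides. Its difference was smaller than that of A_72_P553461 by 0.19 (0.04 to 0.33, adjusted permutation p = 0.0277), though the pigs kept much the same order (r = 0.81). Within the lines, A_72_P553461 was called in high RFI pigs (0.47, adjusted p = 0.0425) and A_72_P570584 in low RFI pigs (0.42, adjusted p = 0.0693), while the other line missed the thresholds by little in each case (0.41 with adjusted p = 0.0871, and 0.41 with adjusted p = 0.0675).

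RXRA, the RXR that most often partners PPARG in fat, fell slightly. A_72_P444634 averaged 1.64 ± 0.16 in HF and 1.82 ± 0.19 in LF pigs, a difference of -0.18 ± 0.05 (SE; limma, adjusted p = 0.00693). The lowest, median and highest values were 1.42, 1.73 and 1.88 in HF_RFIneg and 1.37, 1.59 and 1.89 in HF_RFIpl, against 1.66, 1.84 and 2.21 in LF_RFIneg and 1.21, 1.83 and 1.99 in LF_RFIpl. HF pigs were mostly low, with 21 of 24 below the LF median and 8 LF pigs above the highest HF pig, although the single lowest pig was of LF_RFIpl. The probe O15026, outside the kept set, gave -0.29 ± 0.08 in the fit over all 60306 probes (adjusted p = 0.00473), where 17.6% of probes were called for diet, and 22 of 24 HF pigs lay below its LF median.

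RXRB, found in most tissues, had probes that disagreed. The brightest, A_72_P205407, averaged 2.56 ± 0.25 in HF and 2.54 ± 0.19 in LF pigs, with a difference of 0.02 (95% interval -0.11 to 0.14, adjusted p = 0.86). A_72_P537734 fell from -0.09 ± 0.12 in LF to -0.25 ± 0.15 in HF pigs (-0.16 ± 0.04, SE; limma, adjusted p = 0.00239), on all 6 slides and with 21 of 24 HF pigs below the LF median. A_72_P537730, which meets it in 18 bases, gave 0.05 (-0.09 to 0.20, adjusted p = 0.611). Both other probes differed from A_72_P537734, by 0.18 (0.06 to 0.29, adjusted permutation p = 0.0109) and 0.21 (0.06 to 0.37, adjusted permutation p = 0.0171). A_72_P537730 was dim, with a median signal of 75.2, and its second spot of the same bases gave -0.06 (-0.18 to 0.05) and followed it weakly (r = 0.18), so this window could not be read well. A spot of the opposite strand of this window was well above background on 3 of 48 arrays.

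PPARGC1A, the coactivator, was dim on this array under its own symbol. O9324 had a median signal of 76.5 and averaged -0.92 ± 0.25 in HF and -0.81 ± 0.32 in LF pigs. Its difference of -0.11 (95% interval -0.27 to 0.05, adjusted p = 0.348 in the limma fit over all 60306 probes) was not called, and 12 of 24 HF pigs lay on each side of the LF median. A brighter probe, A_72_P077836, carried the pig gene under the older name PPARGC-1 and was not a member by the rule. It gave -0.17 (-0.38 to 0.05, adjusted p = 0.276), and its second spot of the same sequence, which was kept, gave -0.26 (-0.50 to -0.02, adjusted p = 0.091), with 18 of 24 HF pigs below the LF median. Neither was called.

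**Figure D3:**
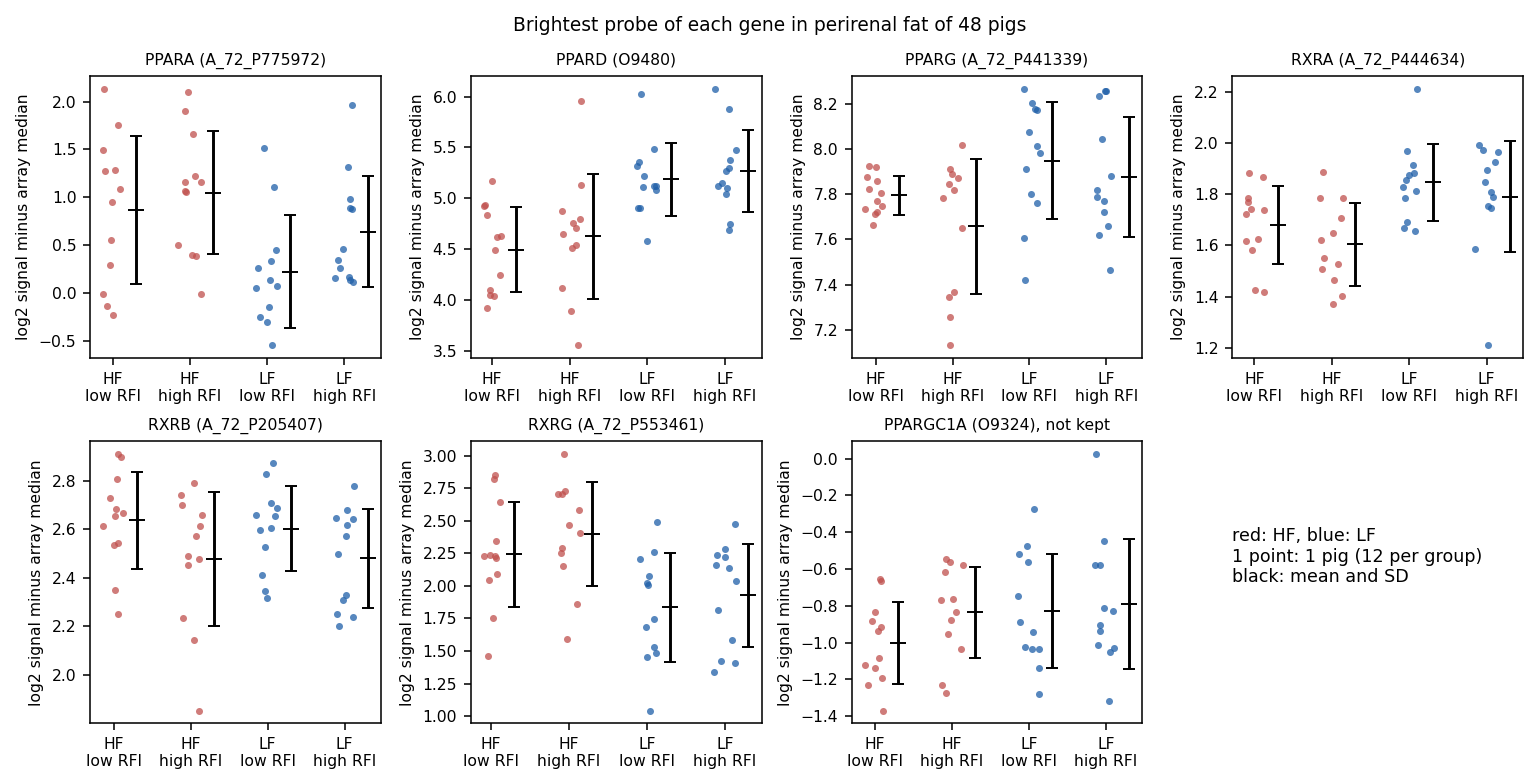
Level of the brightest probe of each gene in every pig by diet and line group (log2 signal minus array median; points are pigs, 12 per group; black marks give mean and SD; the PPARGC1A probe was outside the kept set). HF groups sit higher for RXRG and PPARA A_72_P775972 and lower for PPARD, PPARG and RXRA, with overlap in each panel.

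The order of the 4 groups was set by diet for most probes. Both LF groups stood above both HF groups for the 4 PPARG, 3 PPARD and 2 RXRA probes, PPARA A_72_P441798, RXRB A_72_P537734 and PPARGC1A O9324, and both HF groups stood above both LF groups for the 3 RXRG probes and the other PPARA probes. Neighbours in the order rarely differed beyond their error. For PPARD O9480 the order was LF_RFIpl (5.27), LF_RFIneg (5.18), HF_RFIpl (4.62) and HF_RFIneg (4.49), and only the step between the diets, of 0.56, exceeded the half-width of its 95% interval, 0.37. For RXRG A_72_P553461 the order was HF_RFIpl (2.40), HF_RFIneg (2.24), LF_RFIpl (1.93) and LF_RFIneg (1.83), and no single step exceeded its half-width of 0.32.

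The second question was whether the lines differed. No kept member probe was called for line, where 3.6% of all kept probes were, and 1 of the 17 had an unadjusted p under 0.05. That probe was RXRB A_72_P205407, with 0.14 more in the low RFI line (95% interval 0.02 to 0.26, limma adjusted p = 0.292). For PPARG A_72_P441339 the line difference was 0.11 (-0.03 to 0.24), for PPARD O9480 -0.11 (-0.36 to 0.15) and for RXRG A_72_P553461 -0.12 (-0.35 to 0.10), so line effects of the size of the PPARG diet effect are within these intervals.

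The third question was whether the diet acted alike in both lines. None of the 17 probes had an interaction p under 0.05 (limma), against 2.17% of all kept probes, and the lowest was 0.38. The diet difference had the same sign in both lines for 16 of 17 probes, the exception being RXRB A_72_P205407 with 0.04 and -0.00. With 12 pigs per diet, 4 member probes were called within low RFI pigs, where 13.4% of all kept probes were, and 4 within high RFI pigs, where 15.3% were, 2 of them in both (the PPARD probes O9480 and A_72_P443751).

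Because a ratio of probes on the same array does not change with how an array is centred, the unequal response of the genes was tested within pigs. Of 15 pairs of brightest probes, 13 differed in their diet difference (permutation test, 100000 resamples, two-sided, adjusted over the 15 pairs). RXRG parted from PPARD by 1.11 (95% interval 0.76 to 1.45, adjusted p = 0.0001), from PPARG by 0.63 (0.36 to 0.89, adjusted p = 0.00015), from RXRA by 0.62 (0.38 to 0.85, adjusted p = 0.0001) and from RXRB by 0.42 (0.18 to 0.67, adjusted p = 0.00218), so RXRG stood apart from both other RXRs. PPARD fell more than PPARG by 0.48 (0.18 to 0.78, adjusted p = 0.00274). PPARG and RXRA, which form a receptor pair, gave no detectable inequality, at -0.01 (-0.17 to 0.15, adjusted p = 0.896). PPARA by A_72_P775972 and RXRG did not differ detectably either (0.09, -0.34 to 0.51, adjusted p = 0.723), but the sign of that pair turned, to -0.24, when the kept probes of both genes were averaged. With the mean of all kept probes of each gene, the pairs PPARA with RXRB, PPARD with PPARG, PPARG with RXRB and RXRA with RXRB were no longer past the threshold, while all pairs of RXRG with PPARD, PPARG, RXRA and RXRB were.

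**Figure D4:**
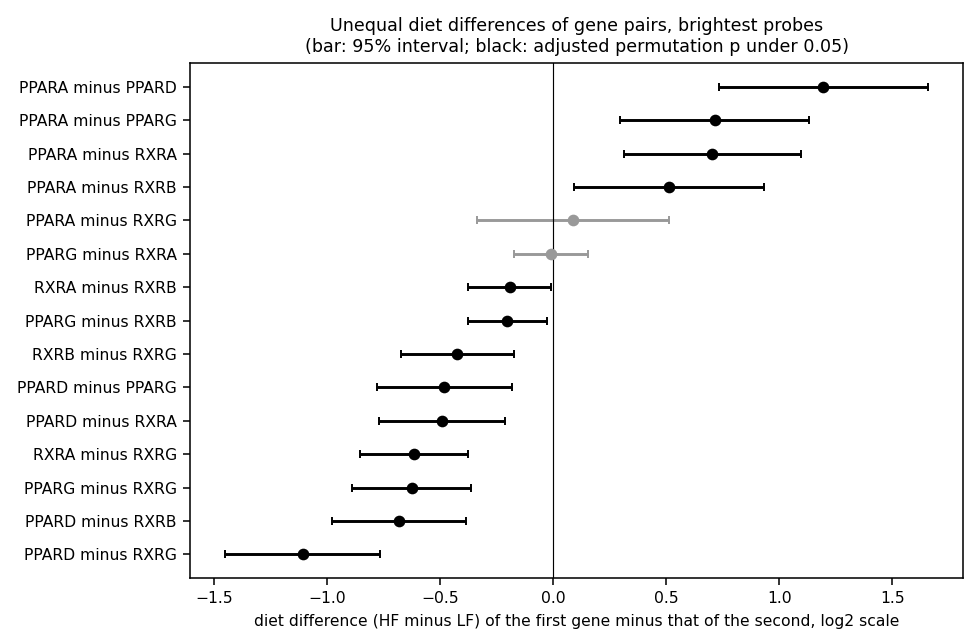
Difference between the diet differences of 2 member genes, measured within pigs on the brightest kept probes (24 pigs per diet, bars are 95% intervals, black marks adjusted permutation p under 0.05). PPARD minus RXRG lies farthest below 0, at -1.11, and PPARA minus PPARD farthest above, at 1.20. With the mean of the kept probes of each gene, which is not drawn, these were -0.73 and 0.49.

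Within the groups, no pair of member genes rose and fell together beyond the threshold. Over 48 pigs with group means removed, none of the 15 pairs of genes passed after adjustment (1 at an unadjusted p under 0.05), and Pearson r ran from -0.35 to 0.21. The single pair at an unadjusted p under 0.05 was RXRA with RXRB (r = -0.35, Spearman rho = -0.36, adjusted permutation p = 0.238 and 0.18), which was -0.30 without the 2 pigs farthest from the median, and -0.12 and -0.21 within the scan days. PPARG and RXRA, the textbook partners, had r = 0.08 (adjusted permutation p = 0.93). Pooled values can hide scan days that part. PPARG with RXRG had r = -0.33 on scan day 1 and 0.44 on scan day 2, a contrast picked from the 15 pairs and not tested.

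The genes most like each member in the same sense, given as descriptions over 48 pigs, were others. Only the group means were removed, so these r values can also hold what arrays of a slide or scan day share, which was not tested. PPARD O9480 was followed most closely, by TIMM17A (a subunit of the mitochondrial import channel, r = 0.80), HSPA12A (0.76) and ACLY (ATP citrate lyase, which supplies carbon for fatty acid synthesis, 0.76), all 3 of which also fell in HF pigs, ACLY by 0.93 on the log2 scale. PPARG was followed by PPP2R5A (0.73), UBE2D3 (0.73) and AMN1 (0.72), RXRA by GPR37L1 (0.76), PKDREJ (0.75) and RASSF5 (0.73), and RXRB by RRP9 (0.72), LOC100627967 (0.65) and MAN1C1 (0.64). PPARA A_72_P775972 was followed by KLF10 (a transcription factor, r = 0.68, which rose by 0.58), MIGA2 (0.60) and LOC100621626 (0.58), and RXRG by SH3GLB2 (0.65), MAF1 (0.64) and ENG (0.62).

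The partners and targets of the receptors were taken from lists, each gene by its brightest kept probe. Over the 9000 genes so named, 6.38% were called higher and 19.7% lower in HF pigs, and the median difference was -0.05. In the pathway lists as a whole, 8 of 82 measured genes were called higher and 13 lower with the array median, but 14 higher and 7 lower with quantile normalization and 20 higher and 3 lower with the spiked-in controls. Each called list gene named below had the same sign under all 7 scalings and background corrections.

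Among the other receptors that pair with RXR, 2 of 8 rose and none fell, with a list median of 0.07. They were both thyroid hormone receptors, THRB (1.19-fold, 0.25 ± 0.08 SE, limma adjusted p = 0.0109) and THRA (1.12-fold, 0.17 ± 0.05, adjusted p = 0.00469), and all 3 kept probes of each were positive. RARA, the retinoic acid receptor alpha, gave -0.00 (adjusted p = 0.983). Among 15 coactivators and corepressors (median 0.02), 1 rose and 1 fell. SIRT1, a deacetylase that represses PPARG and activates PPARGC1A, was the one that rose, 1.26-fold (0.33 ± 0.07 SE, limma adjusted p = 0.000368). NCOA1, NCOA2, NCOR1, EP300 and MED1 were among the genes of this list that were not called.

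Of 11 measured regulators of PPARG transcription and of adipogenesis (median -0.01), 2 fell and none rose. ZNF423, which commits precursor cells to the fat lineage, fell by 0.26 on the log2 scale (adjusted p = 0.00212, limma). CEBPA, the partner of PPARG in adipocyte differentiation, fell by 0.16 (adjusted p = 0.0271), a call made, like those of PPARG itself, under 3 of 7 scalings. SREBF1, the lipogenic factor, gave -0.07 (adjusted p = 0.529).

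Among 15 adipocyte target genes of PPARG (median -0.10), 1 rose and 3 fell. PCK1, an enzyme on the route from pyruvate to the glycerol backbone, rose 3.3-fold, from 5.51 ± 1.27 in LF to 7.23 ± 1.25 in HF pigs (limma adjusted p = 0.000273). All 6 of its kept probes were positive. CIDEC, a lipid droplet protein, fell by 0.24 on the log2 scale (adjusted p = 0.00784) and GPD1, glycerol phosphate dehydrogenase, by 0.22 (adjusted p = 0.0106). The genes ADIPOQ, CD36, LPL, PLIN1, ACSL1 and PNPLA2 were among the 11 that were not called.

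The 24 oxidation targets of PPARA and PPARD, all measured, did not move together: 4 rose, 3 fell and the median was -0.03. PDK4, which holds back glucose oxidation, rose 1.77-fold (adjusted p = 0.00627, limma), with all 11 kept probes positive, UCP2 rose 1.36-fold (adjusted p = 0.013) and CPT1A, the gate for fatty acid entry into mitochondria, 1.25-fold (adjusted p = 0.00518). CPT1B also rose, 1.14-fold. EHHADH of the peroxisome fell by 0.33 on the log2 scale (adjusted p = 4.95e-05) and CPT2 by 0.18 (adjusted p = 0.00941). ACADM, ACADL, HADHA and ANGPTL4 were not called.

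For PPARGC1A, 4 of 9 measured partners and mitochondrial targets fell and none rose (median -0.07). The largest fall was of CYCS, cytochrome c, by 0.54 on the log2 scale (limma adjusted p = 9.75e-06), with all 14 kept probes negative. ESRRA, the receptor through which PPARGC1A acts on mitochondrial genes, fell by 0.20 (adjusted p = 0.0114) and TFB1M, a mitochondrial transcription factor, by 0.19 (adjusted p = 0.00844), both called under 4 of 7 scalings, while the fourth, SIRT3 (-0.17), was called under 3 of 7. NRF1 and UCP1 were not analysed here.

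**Figure D5:**
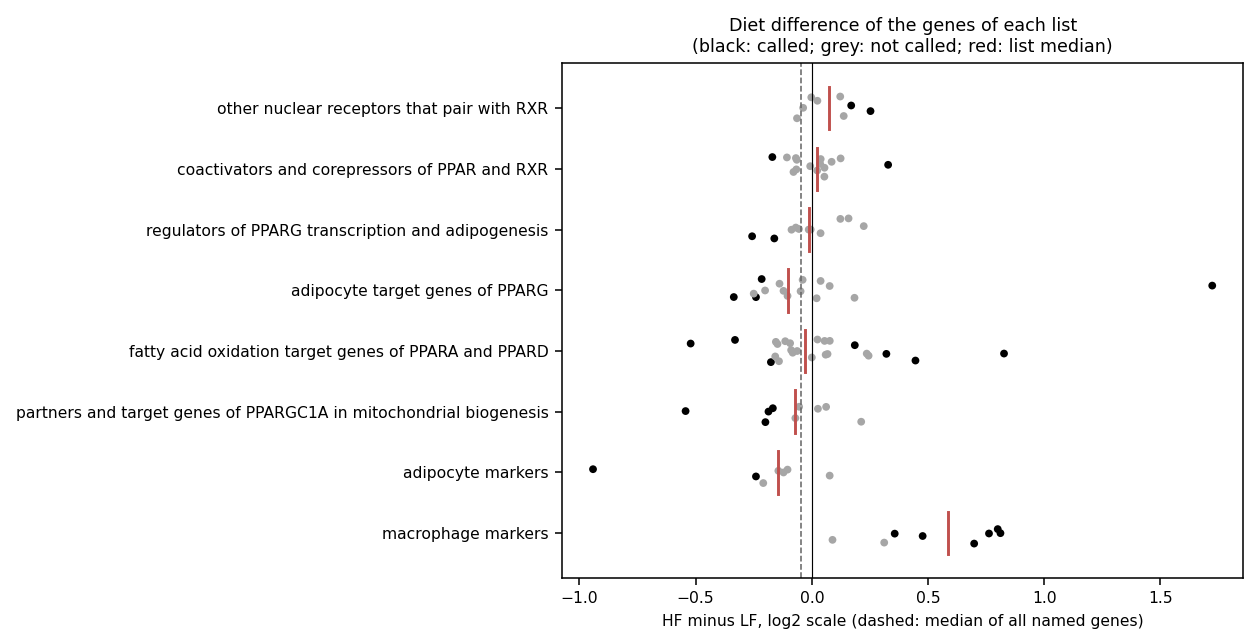
Diet difference (HF minus LF, log2 scale) of each measured gene of the pathway lists and of the adipocyte and macrophage markers, 1 point per gene by its brightest kept probe; black points were called, red bars are list medians and the dashed line is the median of all named genes, -0.05. PCK1 at 1.72 and PDK4 at 0.83 stand apart on the right, and 6 of 8 macrophage markers were called higher.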

How the data were processed

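Total RNA from perirenal fat was labelled with Cy3 and hybridised to a custom Agilent porcine array, 8 arrays to a slide, 1 array per pig. Per the file headers the scanner files hold spot intensities (median, mean, background and processed signal), which the authors filtered on intensity, uniformity, saturation and outliers, log2-transformed and median-centred in R (version 2.10.0 by the submitters' processing notes). The deposited log2 table holds 38142 probes. Its row names belong to the matched spot for 2 entries, so each entry was matched by value (tolerance 1e-06), which gave exactly 1 spot for all of them, and levels were taken from the scanner files. The array annotation names no genome build, so no coordinates are given.

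Levels were log2 median signal minus the array median over all non-control probes. All 48 arrays entered 1 limma fit (limma 3.58.1, R 4.3.3) with diet, line and their interaction. Probes were called at unadjusted p under 0.01, fold over 1.1 and Benjamini-Hochberg p under 0.08, the thresholds of the study, whose two-way analysis of variance was run as an alternative. Probe pairs (18) and gene pairs (15) were tested by permuting diet labels 100000 times (two-sided, called at an adjusted p under 0.05), which cannot give a p below 1e-05, and intervals are 95%. The scripts were tested on simulated data. Each of the 6 slides held 2 arrays of each group, and slides were scanned on 2 days. Other settings were array scaling, background correction, probe filters, slide, scan day and replicate blocks, array weights, and, for probe pairs, the processed signal (chosen after seeing the data). The number of arrays limits the precision.

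Named are every member probe, up to 3 called genes with the largest rise and up to 3 with the largest fall in each list (with SREBF1, RARA, NRF1, SIRT1 and UCP1 in any case), and the 3 genes most like each member. A few list genes that count in the totals are not reported here by name. CPT1B, SIRT3, the uncalled list genes and the cell type markers shown were named beyond this rule after their values were seen. Gene symbols of list genes came from the files and from RefSeq names, which left 19753 of the kept probes unnamed. Members and lists were chosen with earlier results of these data known.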

Additional observations from a re-analysis of the deposited data

How the results depend on the processing

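The 10 member probes called for diet became 6 with spiked-in control centring and stayed between 7 and 11 under the 13 other settings. Of the 38142 kept probes, 9335 were called in the main setting and 11039 with spiked-in control centring. The count of called member probes thus fell while that of the whole array rose. The other settings on the kept probes called from 8602 to 10310. The unfiltered set gave 10640 of 60306, and probes well above background on all arrays gave 9440 of 37104. Interaction p-values under 0.01, found for 111 of all kept probes, were 261 with spiked-in control centring, 213 over all 60306 probes and 195 with the replicate block. Pathway genes called were 8 higher and 13 lower, against 20 and 3 with spiked-in control centring, 14 and 7 with quantile normalization, and 14 and 7 with normexp and quantile normalization. The cause was not tested. Within slide 6 alone, 3 probes called lower turned to 0.00459 (PPARA A_72_P441798), 0.0454 (PPARD A_72_P443751) and 0.0195 (RXRA A_72_P444634), and RXRB A_72_P205407 was -0.00199 within high RFI pigs. The unequal difference of PPARA and RXRG turned to -0.24 with the mean over the kept probes of a gene. Under quantile normalization 5 correlations near 0 changed sign, to -0.0932 (PPARD with PPARG), -0.00672 (PPARD with RXRB), -0.00512 (PPARD with RXRG), -0.0971 (PPARG with RXRA) and -0.0309 (PPARG with RXRG). The PPARG probe A_72_P441339 also lost its call with slide or scan day as a block and in the analysis of variance.

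Replicate numbers are shared by the groups, and same-numbered samples deviated together somewhat more than others. Their mean r was 0.106 over 72 pairs, against -0.0095 for other pairs between groups and 0.046 for those of them on the same slide. Of the same-numbered pairs, 38 had r over 0.1, and 16 of 48 samples correlated best with their own number. What the numbers stand for was not tested, and the main fit treated the pigs as unpaired. With the replicate block, 11 member probes were called for diet, PPARG A_72_P636927 being added, and none for line. Of the 38142 kept probes, that setting called 10149 for diet and 1832 for line. Signal over background limits the dimmest member probes, PPARA O221, RXRB A_72_P537730 and PPARGC1A O9324, whose median signals were 63.5, 75.2 and 76.5 where the median background of an array was 23 to 33.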
